A study of Homo sapiens with 6 samples.

Results

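The BCL2 family decides whether a cell's mitochondria release the proteins that start apoptosis, and 10 of its genes were followed here in K562 cells treated with hyperoside. The genes were taken by symbol from the deposited count table, which held all 10 among its 24960 genes. They comprised 3 survival genes (BCL2, BCL2L1 and MCL1), 2 effector genes (BAX and BAK1) and 5 BH3-only genes (BID, BAD, BBC3, PMAIP1 and BCL2L11). K562 is an established human chronic myeloid leukemia (CML) line that carries the BCR::ABL fusion. RNA was sequenced from 3 control libraries (the control group) and from 3 libraries of cells given hyperoside at 2 mM (the hyperoside group). Hyperoside is a flavonol glycoside made by Hypericum plants. Whether the control cells were given a vehicle is not stated in the sources used here. The time between treatment and RNA extraction was not given in the sources used here, and nothing in the labels says whether the replicates came from separate cultures, so p-values measure the spread between these libraries only.

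Survival proteins such as BCL-xL (from BCL2L1) and MCL-1 hold the effectors BAX and BAK in check at the outer mitochondrial membrane. BH3-only proteins sense damage or lost growth signals, bind the survival proteins and free or activate the effectors, which then open pores and release cytochrome c. In erythroid and CML cells BCL2L1 is a known output of STAT5 signaling, and MCL-1 is a short-lived protein whose amount is set largely after transcription. The values below are RNA levels, and protein was not analysed here.

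Each library held between 35613283 and 36754725 counts on genes. Counts were normalized with TMM factors and the groups compared with edgeR's quasi-likelihood test over 15095 genes that passed a filter on low counts, among them all 10 members. A gene was called when its Benjamini-Hochberg adjusted p over those genes was under 0.05. By this rule 45.3% of all tested genes were called, 22.1% higher and 23.2% lower in the hyperoside group. Control replicate 1 stood apart within its group, with a chi-square per degree of freedom of 20.3 and 23.1 against the other control libraries, which differed from each other by 6.34. Several values without it are given beside the results. The K562 markers were abundant, with a summed level of 5374 to 6850 CPM (counts scaled to the normalized library size) over 10 erythroid, BCR and ABL1 genes in control cells and 4055 to 4878 CPM in treated cells, where 4 of the 10 were called lower and 1 higher. The labels name the tissue as bone, but BGLAP, SP7 and ALPL, markers of osteoblasts, had at most 10 counts in every library. The 5 bone markers of the table summed to 4.59 to 6.14 CPM in control cells and 3.77 to 5.26 with hyperoside. The 5 lymphoid markers summed to 32.2 to 38.7 and 41.0 to 45.9 CPM, with MS4A1 at or under 10 counts throughout. Most of the lymphoid sum came from CD3D, with 28.3 to 35.9 CPM in control cells and 38.4 to 42.5 with hyperoside. The 9 monocyte and granulocyte markers summed to between 119.1 and 121.5 CPM in control cells and to between 175.4 and 189.4 CPM with hyperoside. Of these markers 4 were called higher and none lower, while CD14, MPO and ELANE had at most 10 counts in every library. The part of these shifts in the results below was not tested.

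Of the 10 members 1 was lower and 1 higher after hyperoside. BBC3, which encodes the BH3-only protein PUMA, fell to 60.8% of its control level, and BAX, which encodes a pore-forming effector, rose to 127.4%. In bulk RNA, fewer cells that express a gene and less RNA per cell cannot be told apart. The 8 other members were not called, and the abundant survival genes MCL1 and BCL2L1 had 90.1% and 96.7% of their control means. The 2 called members are 20.0% of the 10, below the 45.3% of all tested genes. In the same 2 members no treated library fell within the control range, and 54.4% of tested genes had such separate groups. None of the 10 members passed the study's stricter rule, which adds a change of more than 2-fold and which 10.2% of tested genes met. With that rule the count of members was 0 with edgeR and 0 with DESeq2, and 2 members had an unadjusted edgeR p under 0.05. The median log2 fold change of the members was -0.11, beside 0.00 over all tested genes.

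**Figure D1:**
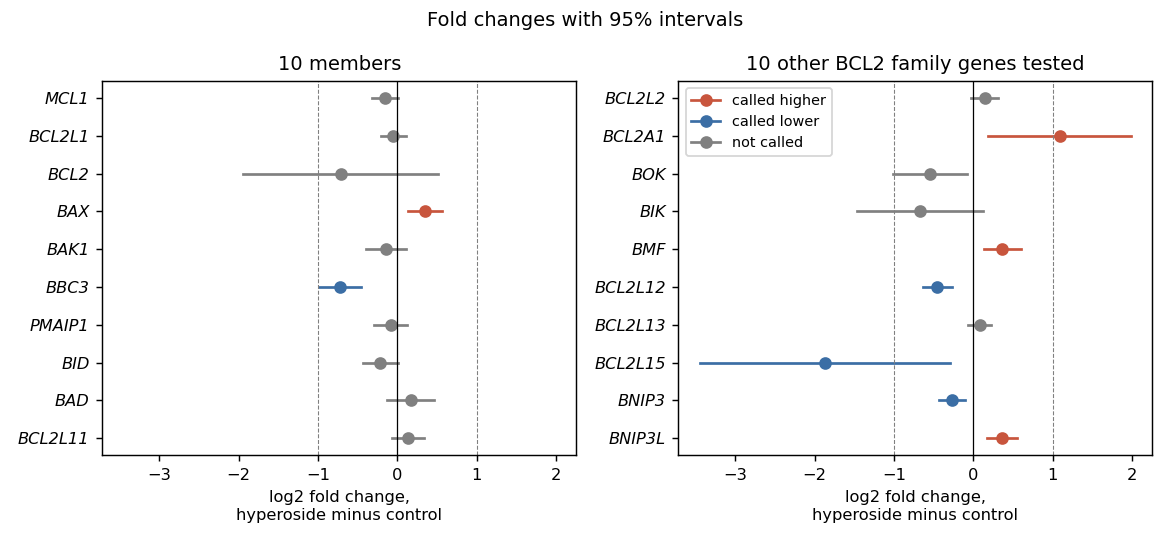
Log2 fold changes (hyperoside minus control) from edgeR with their 95% intervals, for the 10 members on the left and for 10 further BCL2 family genes on the right, with dashed lines at a 2-fold change. Among the members only the intervals of BAX and BBC3 lie clear of 0, and both points lie inside the dashed lines.

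The levels of the members per unit of gene length (FPKM, as deposited) set the scale of these changes. MCL1 and BCL2L1 were the most abundant, with 86.3 ± 9.31 and 78.7 ± 4.65 FPKM in the control group (SD, n = 3 libraries here and below), above 95.6% and 95.1% of all tested genes. BAX followed with 22.5 ± 1.21 FPKM and BBC3 with 20.3 ± 1.77. BID, PMAIP1, BAK1 and BAD lay close together between 9.11 and 11.6 FPKM, and BCL2L11 had 3.97 ± 0.31. BCL2, the founding survival gene of the family, was close to silent at 0.0596 ± 0.0271 FPKM, with only 2.99% of tested genes below it. In this order the libraries of neighbouring genes overlapped for MCL1 and BCL2L1, for BAX and BBC3, and for each neighbouring pair from BID to BAD, so these are not separated beyond the spread of the replicates.

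**Figure D2:**
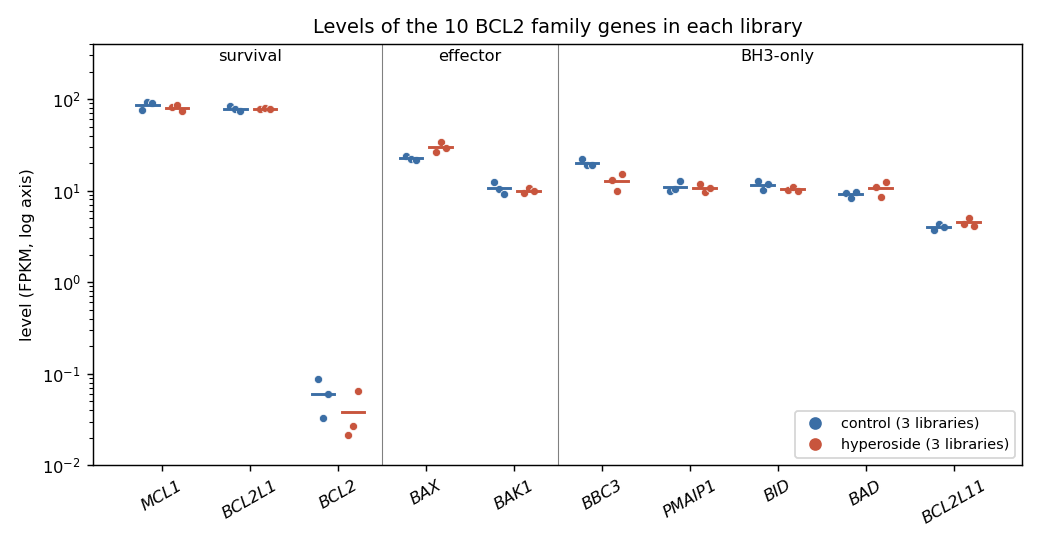
FPKM on a log axis for each of the 10 genes, with 1 point per library, the control group in blue and the hyperoside group in red, and a line at each group mean. MCL1 and BCL2L1 lie near 80 FPKM in both groups and BCL2 below 0.1 FPKM in every library.

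In the hyperoside group BAX and BBC3 kept the third and the fourth place, but their libraries no longer overlapped. BAX had 29.7 ± 3.75 FPKM and BBC3 12.8 ± 2.62, and no hyperoside library of BBC3 reached the lowest of BAX. The ratio of BAX to BBC3 levels was 1.07, 1.15 and 1.12 in control replicates 1 to 3, and 2.0, 3.38 and 1.91 in hyperoside replicates 1 to 3. The BBC3 levels of the hyperoside group overlapped those of PMAIP1, at 10.7 ± 1.08 FPKM. These orders rest on the gene length behind the deposited FPKM, which for PMAIP1 was 4248 bases against 2235 bases of merged exons in GENCODE 29, and for BAX 1462 against 2587. On the GENCODE lengths, an alternative chosen after seeing the data, PMAIP1 would lead the BH3-only genes with 20.9 FPKM in the control group, and BBC3 with 15.2 would lie above BAX with 12.7. In the hyperoside group BAX with 16.8 would lie above BBC3 with 9.55. The length cancels in every comparison of a gene with itself.

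BBC3 is a minus-strand gene of chromosome 19 (47220822 to 47232766 in GRCh38, as for all positions given here from GENCODE 29). PUMA binds all survival proteins of the family, and its gene answers to p73, to FOXO3 and to endoplasmic reticulum stress through CHOP. BBC3 had 55.4, 46.3 and 45.6 CPM in control replicates 1 to 3 and 30.5, 23.3 and 35.8 CPM in hyperoside replicates 1 to 3. Every hyperoside library lay below every control library. Its log2 fold change was -0.72 (standard error 0.13, edgeR adjusted p = 0.000167), with a 95% interval of -0.98 to -0.45. BBC3 ranked 2047 by p among the tested genes. Its call held in each of the 13 alternative analyses, with log2 fold changes from -0.855 to -0.567, and without control replicate 1 the value was -0.62. In GENCODE 29 its exons overlap MIR3190 on the other strand and MIR3191 on its own.

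BAX is a plus-strand gene of the same chromosome (48954815 to 48961798), with no exon of another gene over its own. It had 36.4, 32.8 and 31.3 CPM in control replicates 1 to 3 and 37.6, 48.5 and 42.0 CPM in hyperoside replicates 1 to 3. The groups did not overlap, but hyperoside replicate 1 exceeded control replicate 1 by less than either group's SD, 2.63 and 5.48 CPM. The log2 fold change was 0.35 (standard error 0.10, edgeR adjusted p = 0.00996), with a 95% interval of 0.13 to 0.57. The call rested on hyperoside replicate 2, without which the log2 fold change was 0.25 and the adjusted p 0.0814. Without control replicate 1 it was 0.42.

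**Figure D3:**
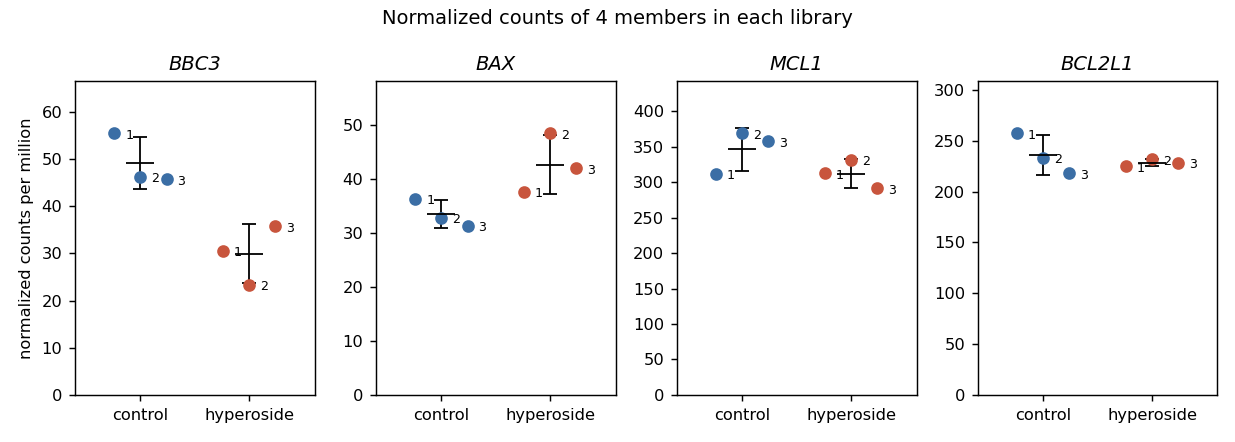
Normalized CPM of BBC3, BAX, MCL1 and BCL2L1 in each library, numbered by replicate, with the group mean and SD in black and axes that start at 0. The groups are separate for BBC3 and BAX and overlap for MCL1 and BCL2L1.

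The RefSeq windows before the transcription starts of BAX and BBC3 are shown because these are the 2 members whose RNA differed. Each runs 5′ to 3′ on the gene's strand and ends before the first base that GENCODE 29 gives to the gene, so that it holds no base of the annotated gene. Capitals mark the E-box CACGTG, the motif of MYC, MAX, USF and TFE3 proteins. The BAX window is chr19:48954625-48954814 and the BBC3 window is chr19:47232767-47232917 of GRCh38.p14.
BAX: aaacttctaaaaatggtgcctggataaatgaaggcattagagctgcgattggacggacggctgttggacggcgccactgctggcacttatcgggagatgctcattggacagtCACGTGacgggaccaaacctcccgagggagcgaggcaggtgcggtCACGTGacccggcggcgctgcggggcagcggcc
BBC3: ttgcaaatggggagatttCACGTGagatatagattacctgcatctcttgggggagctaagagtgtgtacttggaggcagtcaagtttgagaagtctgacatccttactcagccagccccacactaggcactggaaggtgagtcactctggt

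In the full 250 bases before its RefSeq start BAX held 4 E-boxes, a number reached by 5 of 35116 windows of this length (0.0142%), while 6.34% held at least 1. They began 138, 93, 45 and 14 bases before that start, and the first 2 lie in the stretch shown. BBC3 held 1, and of the windows for several starts of BID 2 overlapping ones held the same single E-box. The search on both strands also covered the CRE motif TGACGTCA, held by 1.65% of windows, the ATF4 and CHOP type motif TGATGCAA, held by 0.772%, and the STAT motif TTCNNNGAA, held by 6.57%. None of the last 3 motifs was found in the windows of the 9 members that had one. A match describes these letters only, and binding was not analysed here.

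None of the 3 survival members was called. MCL1 (chromosome 1, 150574551 to 150579738, minus strand) had 312, 369 and 358 CPM in the controls, against 313, 332 and 291 with hyperoside. The groups overlapped through control replicate 1. Its log2 fold change was -0.15 (95% interval -0.31 to 0.01, edgeR adjusted p = 0.123). Without control replicate 1, the library that stood apart, the value was -0.22 and the adjusted p 0.00665. BCL2L1 (chromosome 20, 31664452 to 31723989, minus strand) had 257, 233 and 218 CPM in the controls, against 225, 232 and 229 with hyperoside. All hyperoside values of BCL2L1 lay inside the range of the controls, and its 95% interval ran from 0.869 to 1.08 of the control level. Its log2 fold change was -0.05 (edgeR adjusted p = 0.618) and turned to 0.02 without control replicate 1. The exons of BCL2L1 overlap the antisense gene ABALON, and the use of strand in counting is not given in the sources used here.

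BCL2 (chromosome 18, 63123346 to 63320128, minus strand) encodes the protein that venetoclax targets and that gave the family its name. It had 33, 12 and 22 counts in the controls, against 8, 10 and 24 with hyperoside. The groups overlapped, since hyperoside replicate 3 exceeded control replicates 2 and 3. Its log2 fold change of -0.71 was close to that of BBC3 but had a standard error of 0.58 (edgeR adjusted p = 0.341), and its 95% interval reached from 0.261 to 1.43 of the control level. Without control replicate 1 the value was -0.31. A change of BCL2 within these limits was not detectable at this depth. A single BCL2 count was worth 0.00263 to 0.00271 FPKM, depending on the library.

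BAK1 (chromosome 6, 33572547 to 33580293, minus strand), the other effector, was not called. It had 29.6, 24.2 and 21.0 CPM in the controls, against 21.1, 24.1 and 22.7 with hyperoside, a log2 fold change of -0.14 (95% interval -0.39 to 0.11, edgeR adjusted p = 0.358). The hyperoside values fell inside the range of the controls, and without control replicate 1 the log2 fold change was 0.004. The ratio of BAX to BAK1 levels in FPKM was 1.94 to 2.34 in the control libraries and 2.80 to 3.17 in the hyperoside libraries, and this ratio was not tested.

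Of the 5 BH3-only members, BBC3 alone was called. BID (chromosome 22, 17734138 to 17774770, minus strand), whose protein is cut by caspase-8 and links death receptors to mitochondria, had 35.7, 27.4 and 31.7 CPM in the controls, against 26.6, 28.8 and 26.3 with hyperoside. The groups overlapped through control replicate 2. The log2 fold change of BID was -0.21 (standard error 0.10, edgeR adjusted p = 0.106), and without control replicate 2 it was -0.31 with an adjusted p of 0.0366. Without control replicate 1 it was -0.11 with an adjusted p of 0.355. PMAIP1 (chromosome 18, 59899948 to 59904306, plus strand) encodes NOXA, which binds MCL-1 and is a target of ATF4. It had 43.6, 44.9 and 53.6 CPM in the controls, against 48.7, 40.1 and 45.5 with hyperoside. The groups overlapped widely, with a log2 fold change of -0.08 and a 95% interval from 0.817 to 1.09 of the control level (edgeR adjusted p = 0.533). Its log2 fold change was 0.013 without control replicate 3 and -0.136 without control replicate 1.

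BCL2L11 (chromosome 2, 111119378 to 111168447, plus strand) encodes BIM, a FOXO3 target that rises in CML cells when BCR::ABL is blocked. It had 29.6, 33.4 and 30.4 CPM in the controls, against 32.8, 38.1 and 31.7 with hyperoside. The highest control value exceeded the lowest hyperoside value, and the log2 fold change of 0.14 was not called (95% interval -0.07 to 0.34, edgeR adjusted p = 0.276). BAD (chromosome 11, 64269830 to 64284704, minus strand), whose protein growth-factor kinases switch off by phosphorylation, had 11.9, 10.4 and 11.7 CPM in the controls, against 13.1, 10.3 and 14.95 with hyperoside. Its log2 fold change was 0.17 (95% interval -0.13 to 0.47, edgeR adjusted p = 0.353), with hyperoside replicate 2 below every control. The value was 0.052 without hyperoside replicate 3 and 0.303 without hyperoside replicate 2. Exons of BAK1 overlap GGNBP1, those of BAD GPR137 and those of BCL2L11 MIR4435-2HG, each on the opposite strand. The overlaps cover 91 of 2212 merged exon bases for BAK1, 404 of 1708 for BAD and 727 of 6658 for BCL2L11. Only reads inside these stretches cannot be told apart without strand.

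Added up per unit length, the 10 genes came to 254 ± 1.36 FPKM in control cells and 248 ± 5.37 in treated cells. The survival genes made up 64.9% ± 1.97 of this sum in control cells and 64.2% ± 1.39 in treated cells, nearly all of it MCL1 and BCL2L1. The effectors made up 12.1% to 14.3% in the control libraries and 14.6% to 17.5% in the hyperoside libraries. The BH3-only genes made up 20.5% to 22.9% and 17.4% to 21.5%, ranges that overlapped. Among the BH3-only genes alone, BBC3 accounted for 38.5%, 36.7% and 33.6% in control replicates 1 to 3 and for 26.1%, 22.6% and 29% in hyperoside replicates 1 to 3. These shares rest on the deposited gene lengths, describe the make-up of the RNA pool and were not tested. On the GENCODE 29 lengths the survival share of the hyperoside group would be 65.2%. In the control group PMAIP1 with 20.9 FPKM, and not BBC3 with 15.2, would then be the largest BH3-only part.

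**Figure D4:**
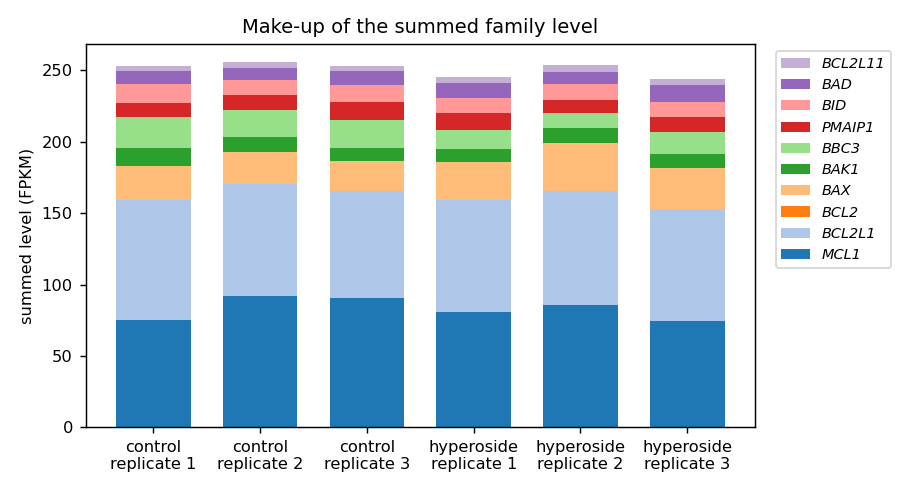
FPKM of the 10 genes stacked for each of the 6 libraries. The total stays between 244.0 and 255.7 FPKM, with the BBC3 block thinner and the BAX block thicker in the hyperoside libraries.

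Among 13 other BCL2 family genes, 10 were tested, 3 were called higher and 3 lower, beside 45.3% called over all tested genes. Their median log2 fold change was -0.10. BNIP3L, a mitophagy receptor that clears mitochondria from maturing red cells, rose from 233 ± 27.0 to 298 ± 28.1 CPM (log2 fold change 0.36, edgeR adjusted p = 0.00314). Its relative BNIP3 fell from 151 ± 4.05 to 125 ± 10.5 CPM (log2 fold change -0.27, adjusted p = 0.0076). BMF, a BH3-only gene, rose from 23.1 ± 2.15 to 29.8 ± 3.52 CPM (0.37, adjusted p = 0.0109), and BCL2L12 fell from 74.3 ± 6.99 to 54.1 ± 1.88 CPM (-0.46, adjusted p = 0.000297). In this list 2 low genes passed the 2-fold rule near the threshold, BCL2A1 with 0.790 and 1.68 CPM (adjusted p = 0.0463) and BCL2L15 with 0.577 and 0.155 CPM (adjusted p = 0.0497). The groups of BCL2L15 overlapped. The calls of BCL2A1 and BCL2L15 held in 7 and 3 of the 13 alternatives. BCL2L10, HRK and BCL2L14, named because they were not tested, had at most 12 counts in any library.

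Of 25 caspase, apoptosome, channel and inhibitor-of-apoptosis genes all were tested, and 6 were called higher and 8 lower, none of these 14 by more than 2-fold. They are 56.0% of the list, beside 45.3% of all tested genes, with a median log2 fold change of -0.05. With the replicate number as a block 9 of the 25 were called, while the count was 7 without hyperoside replicate 1 and 9 without hyperoside replicate 3. On the side of the mitochondrial pathway, CASP9, the initiator caspase of the apoptosome, fell from 39.4 ± 3.71 to 29.8 ± 2.60 CPM (log2 fold change -0.40, edgeR adjusted p = 0.00305). APAF1, its scaffold, fell from 66.8 ± 4.94 to 56.2 ± 1.86 CPM (-0.25, adjusted p = 0.0206), a call that 5 of 13 alternatives kept. VDAC1, an outer membrane channel, fell to 83.7% of control (adjusted p = 0.00851).

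XIAP, which blocks caspases directly, rose from 68.4 ± 12.3 to 98.1 ± 6.09 CPM (log2 fold change 0.52, edgeR adjusted p = 0.000592), while BIRC5, which encodes survivin and is high in dividing cells, fell to 83.3% of control (adjusted p = 0.0137). DFFA, the inhibitor of the nuclease that cuts DNA in apoptosis, rose to 131.1% of control (adjusted p = 0.000204). CASP8 and CASP10, initiator caspases of the death receptors, were called in opposite directions. CASP8 rose from 28.2 ± 1.09 to 37.4 ± 0.406 CPM (0.41, adjusted p = 0.00101) and CASP10 fell from 46.9 ± 3.77 to 25.9 ± 3.42 CPM (-0.86, adjusted p = 3.39e-06).

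Of 14 death receptor genes 9 were tested, and 4 were called higher and 2 lower by the same rule, 66.7% of those tested beside 45.3% of all tested genes. With 1 library left out the count was 4 to 6. The median log2 fold change of the list was 0.04. TNFRSF10B, which encodes the TRAIL receptor DR5 and is a target of CHOP, fell from 242 ± 12.0 to 115 ± 12.0 CPM (log2 fold change -1.07, edgeR adjusted p = 1.46e-08). It was the only gene of this list past the 2-fold rule. Its adaptor FADD rose from 21.2 ± 2.60 to 30.3 ± 1.51 CPM (0.52, adjusted p = 0.000675), and the TNF receptor adaptor TRADD fell from 23.4 ± 3.25 to 15.1 ± 1.19 CPM (-0.63, adjusted p = 0.000289). RIPK1, a kinase shared by TNF receptor survival and death signaling, rose from 28.0 ± 1.01 to 46.5 ± 3.20 CPM (0.73, adjusted p = 3.97e-06), and TNFRSF1A, the TNF receptor gene, rose to 118.7% of control (adjusted p = 0.0253), a call that 7 of 13 alternatives kept.

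Of 28 genes known to control the members, all tested, 5 were called higher and 7 lower, a share of 42.9% beside 45.3% of all tested genes. Without control replicate 1 the count was 15. The 2-fold rule was passed by 5, and 10.2% of all tested genes passed it. The median log2 fold change of this list was -0.07. Several stress-response genes of this list were lower, among them factors that can induce BBC3 and PMAIP1. DDIT3, which encodes CHOP, had 285, 241 and 259 CPM in the controls, against 107, 97.0 and 116 with hyperoside (log2 fold change -1.30, edgeR adjusted p = 2.11e-09). ATF4 fell from 546 ± 55.8 to 331 ± 21.6 CPM (-0.72, adjusted p = 1.02e-06), ATF3 to 34.1% of control (adjusted p = 4.88e-09) and TRIB3 to 37.7% (adjusted p = 5.57e-10). In each of these genes the groups did not overlap. TNFRSF10B and BBC3 were lower as well, while PMAIP1 was not called.

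Other genes of this list were higher, among them TP73 and FOXO3, known activators of BBC3. TP73, which encodes the transcription factor p73, had 9.36, 8.72 and 8.54 CPM in the controls, against 31.0, 33.0 and 30.4 with hyperoside (log2 fold change 1.83, edgeR adjusted p = 5.57e-10). FOXO3 rose from 71.4 ± 8.46 to 114 ± 7.59 CPM (0.68, adjusted p = 8.15e-06), and NFKB1, which encodes a subunit of NF-κB, rose from 10.8 ± 0.763 to 22.2 ± 0.658 CPM (1.04, adjusted p = 6.52e-07). The RNA of BBC3 was lower in libraries where TP73 and FOXO3 were higher and where DDIT3 and ATF4 were lower, and the relation between these genes was not tested.

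**Figure D5:**
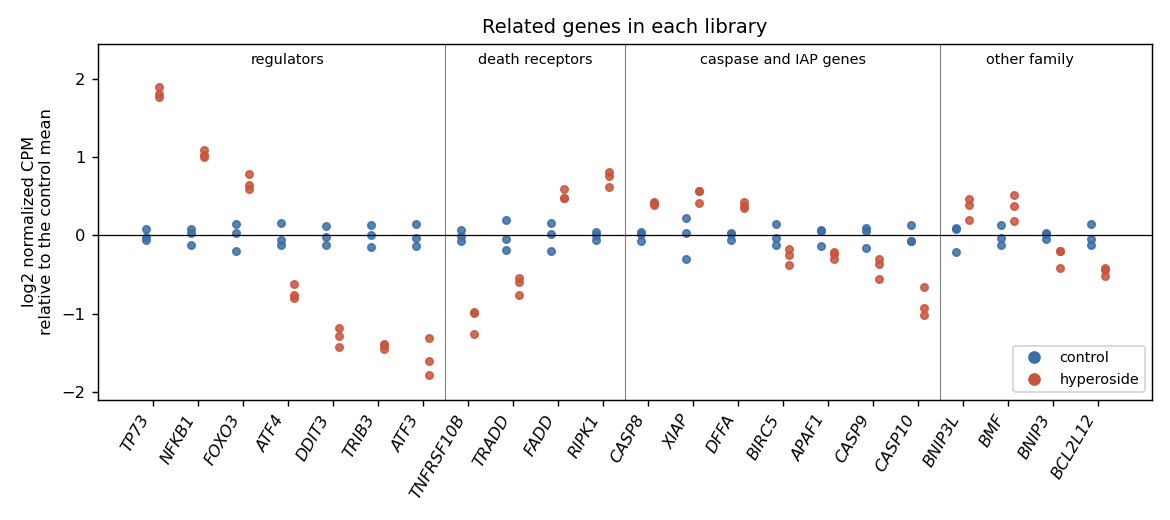
Log2 normalized CPM of 22 related genes relative to each gene's control mean, with 1 point per library, control in blue and hyperoside in red. TP73, NFKB1 and FOXO3 lie above their controls, DDIT3, TRIB3, ATF3 and TNFRSF10B below.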

How the data were processed

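Total RNA (TRIzol) of 3 control and 3 hyperoside K562 samples was sequenced on the Illumina HiSeq platform. The authors deposited raw counts per gene and FPKM values, counts divided by gene length and library total. The submitters' processing notes name fastp, HISAT2, HTSeq and hg38, without roles or versions, and the use of strand is not given in the sources used here. Groups and replicate numbers follow the labels, and the dose follows the study's text.

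The counts were fitted with edgeR 4.0.16 under R 4.3.3 (filterByExpr with a minimum count of 10 and a minimum total of 15, TMM, quasi-likelihood test, condition as the only term) across all genes, with Benjamini-Hochberg adjustment over the 15095 tested. A standard error is the absolute log2 fold change divided by the square root of F. The study used DESeq with a fold above 2. DESeq2 1.42.0 and limma 3.58.1 on log2(FPKM + 1) and log2(FPKM + 0.1) served as alternatives. The fit was also run on counts simulated from its own fitted means and dispersions. Such a run checks the code and cannot show whether the model suits these data.

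The members and the 4 lists of related genes were chosen with earlier results of these data known. Related genes were named if they passed a 2-fold change, were among the 3 smallest adjusted p in a direction of their list, or belonged to a fixed set (CASP8, CASP9, APAF1, XIAP, BIRC5, DDIT3 and ATF4). Promoter windows came from RefSeq (GRCh38.p14) and positions from GENCODE 29. Of 10 members, 9 had a window. Protein sequences were not analysed here, and some genes that the naming rule takes are not reported here.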

Additional observations from a re-analysis of the deposited data

How the results depend on the processing

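Alternatives covered 2 other normalizations, DESeq2, no filter on low counts, limma on FPKM with 2 pseudocounts, a block on the replicate number and the omission of each library, 13 in all. BBC3, BCL2, BAD and BCL2L11 kept their direction and their side of the threshold in all 13. BAX kept its call in 12, with log2 fold changes from 0.248 (without hyperoside replicate 2) to 0.434, and the count of called members was 1 to 3 with a library left out. Members near no change turned sign without being called. BCL2L1 had log2 fold changes of 0.004 with limma on either pseudocount and of -0.11 to 0.02 with a library left out, BAK1 of -0.25 to 0.004 and PMAIP1 of -0.146 to 0.013 with a library left out. The cause was not tested. The caspase list had 9 calls with the replicate block against 14, and 7 to 14 with a library left out. The block changed no member's call. Samples with the same replicate number did not deviate together (correlations of -0.08, -0.03 and -0.03 between control and hyperoside replicates 1, 2 and 3). With so few libraries this cannot show whether those of the same number were prepared as pairs. Over all tested genes 6841 were called, of which 1537 changed more than 2-fold, and 344 did on log2(FPKM + 1), where the added 1 shrinks changes of low genes. MCL1 was called without control replicate 1 and BID without control replicate 2. The low counts of BCL2 limit what can be said of it.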
